A study of Mus musculus with 46 samples.

Results

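The genes described here are 9 immediate early genes: the AP-1 subunit genes Fos, Fosb, Fosl1, Fosl2, Jun, Junb and Jund, together with Egr1 and Arc. They were chosen by name, and each is represented by the probe set with the highest mean over all 46 arrays, so that 9 of the 10470 genes measured with a probe set of their own are followed. Messenger RNA was profiled in 41 tumors that arose in 8 engineered mouse models and in 5 glands taken from pregnant mice without a tumor. The values are log2 expression levels on the GC-RMA scale, on which an unexpressed probe set settles near 2, and 9329 genes that exceeded 4 in at least 3 arrays were tested.

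Tumors labelled C3TAg (n = 5, FVB) carry simian virus T antigens under the C3(1) promoter. Tumors labelled p53-/- (n = 7, Balb/C) arose, per the methods of the study, in transplants lacking p53 through MMTV-driven Cre, and those labelled Brca1-/-p53+/- (n = 5, 129B6/FVB) in glands that lost Brca1 the same way on a background with a single p53 allele. The mouse mammary tumor virus promoter, MMTV, drove the oncogene in MMTV-Hras (n = 5), MMTV-H2N (Her2/neu, n = 5), MMTV-C-Myc (n = 4), MMTV-PymT (polyoma middle T antigen, n = 6) and MMTV-Wnt (n = 4) tumors, all in FVB mice. This promoter is mostly epithelial but can also be active outside the gland. The FVB pregnant group (n = 5) is the normal tissue, with no altered gene in the labels. The study classed the first 3 models as basal-type (17 tumors) and the 5 MMTV oncogene models as luminal-type (24 tumors). No normal gland of the other strains was analysed here, so strain and genotype cannot be told apart for p53-/- and Brca1-/-p53+/- tumors.

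AP-1 is a dimer of basic leucine zipper proteins that binds short palindromic DNA sites. Jun proteins pair with each other or with Fos proteins, whereas Fos proteins need a Jun partner. Their genes, like Egr1, are transcribed within minutes of a growth factor, a stress or a wound, because the kinases of the MAPK cascades act on SRF, its ternary complex partners and CREB that already sit on the promoters, and the transcripts decay quickly. Fos and Jun were found as cellular counterparts of retroviral oncogenes. Since handling and the time between excision and freezing can also induce these genes, their level in frozen tissue can reflect its collection as well. The study snap froze its tumors. The sources used here give neither the interval before freezing nor how the glands were preserved.

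The arrays were checked before the genes were read. Array medians lay between 6.48 and 7.48. The mean correlation of an array with the others of its group, taken across genes, which are not independent replicates, was lowest for Brca1-/-p53+/- arrays 2 (0.728) and 5 (0.758) and for MMTV-Wnt array 3 (0.799) and reached 0.984 elsewhere. Brca1-/-p53+/- 2 had mean levels of 12.43 over 6 adipocyte genes and 14.09 over 6 skeletal muscle genes, against at most 7.90 and 10.35 in any other tumor. MMTV-Wnt 3 and Brca1-/-p53+/- 3 and 4 had the lowest mean levels of 10 mammary epithelial genes (6.60, 5.98 and 4.67), and all other arrays were at 9.02 or above. The glands expressed the epithelial genes (11.22 ± 0.44, SD, n = 5) and 6 milk genes (15.22 ± 0.18), and they also held adipocyte (10.80 ± 0.55) and muscle genes (11.24 ± 2.96). In such bulk tissue fewer cells of a type and less RNA per cell cannot be told apart.

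Most of the variation between arrays in Egr1 (79.8%), Arc (78.0%), Junb (69.0%) and Fos (67.4%) lay between the 9 groups, and 54.0% of that in Jun did. By contrast 30.7% of the variation in Fosl2, 25.1% in Fosl1 and 21.1% in Jund lay between groups. Of the 8 members that passed the filter on low values, 5 differed among the 9 groups by the moderated F test of limma (Egr1, adjusted p = 1.78e-09, Arc, 4.79e-09, Junb, 7.44e-07, Fos, 1.99e-06, and Jun, 0.000237), where 83.2% of all genes tested did. Fosl2 (adjusted p = 0.0775), Fosl1 (0.148) and Jund (0.355) did not pass. Fosb, whose product is an inducible partner of Jun proteins, read between 2.07 and 3.11 in all 46 arrays. It was therefore at the floor of the scale everywhere, did not pass the filter and was not tested.

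Fos, the founding Fos protein, was lowest in normal gland. The glands read 8.01, 7.99, 7.28, 9.20 and 8.65 (8.23 ± 0.73). The p53-/- tumors were highest with a lowest value of 10.16, a median of 11.23 and a highest value of 11.83, and MMTV-PymT tumors followed with 10.73, 11.16 and 11.64. Every tumor of these models therefore exceeded every gland. C3TAg tumors read 10.71, 10.76, 10.33, 12.21 and 9.83, and Brca1-/-p53+/- tumors 9.86, 9.96, 9.72, 11.68 and 10.57. MMTV-C-Myc tumors read 10.36, 10.13, 10.66 and 8.89, and MMTV-Wnt tumors 9.78, 8.79, 10.84 and 9.91. These 4 models overlapped each other, and MMTV-C-Myc and MMTV-Wnt also overlapped the glands, as did the 2 models that follow. MMTV-H2N tumors read 9.61, 9.57, 9.01, 9.59 and 11.34, and MMTV-Hras tumors 9.78, 10.13, 9.46, 8.90 and 9.54. Over the 8 neighbouring pairs in the order of group means, 1 gap was wider than the larger SD of the pair, that between MMTV-Hras, the lowest tumor group, and the glands.

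Jun, the subunit that can also bind DNA as a homodimer, was lowest in the glands as well, at 8.11, 8.41, 7.72, 8.82 and 8.43 (8.30 ± 0.41). The p53-/- tumors had a lowest value of 10.37, a median of 10.71 and a highest value of 11.58. C3TAg tumors read 10.23, 11.43, 10.84, 10.91 and 8.93. All tumors of both models lay above the glands. MMTV-PymT tumors lay in a narrow band with 10.23 as lowest, 10.45 as median and 10.67 as highest value, and MMTV-Wnt tumors read 11.81, 10.44, 9.74 and 9.63. Brca1-/-p53+/- tumors read 9.90, 8.73, 10.93, 9.86 and 9.22. MMTV-Hras tumors spread most, at 7.49, 10.21, 9.47, 8.94 and 11.19, and MMTV-H2N tumors were close to that with 6.88, 9.75, 10.08, 9.35 and 8.84. Single tumors of these latter models thus fell below every gland. MMTV-C-Myc tumors read 9.73, 8.99, 9.12 and 7.91. None of the 8 gaps between neighbouring group means exceeded the larger SD of the pair.

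Junb, which encodes a subunit that can restrain the activity of Jun and that rises with cytokine and growth factor signals, had its highest means in p53-/- (10.62 ± 0.80) and C3TAg tumors (10.60 ± 0.51). The p53-/- tumors had a lowest value of 9.41, a median of 10.69 and a highest value of 11.58, and C3TAg tumors read 11.24, 10.72, 10.73, 10.47 and 9.84. MMTV-C-Myc tumors read 10.73, 9.10, 9.98 and 8.30. The p53-/- and C3TAg tumors lay wholly above the MMTV-PymT, MMTV-H2N and gland values. Brca1-/-p53+/- tumors fell apart, with 9.92, 10.31 and 10.09 in tumors 1, 3 and 4 but 6.81 and 7.58 in tumors 2 and 5, and MMTV-Wnt tumors read 9.89, 7.92, 9.93 and 8.04. MMTV-Hras tumors read 8.08, 9.36, 9.22, 8.42 and 8.41, MMTV-PymT tumors had 8.03, 8.15 and 8.62 as lowest, median and highest value, and MMTV-H2N tumors read 8.01, 8.01, 7.10, 8.01 and 8.02. The glands read 7.46, 6.52, 4.32, 7.26 and 7.59. The gap of 1.07 between C3TAg and MMTV-C-Myc was the single gap between neighbouring means wider than the larger SD (1.06), and MMTV-PymT and MMTV-H2N tumors did not overlap. Gland 3, far below the others here, was also the lowest gland for Fos, Jun, Jund and Egr1, and its mean over 23 other immediate early genes (7.43) and over 12 heat shock genes (10.04) was the lowest of the glands.

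Egr1, a zinc finger factor induced through SRF and its partners, separated tumors from glands completely. The glands read 8.19, 8.27, 6.79, 7.66 and 8.30 (7.84 ± 0.65), and the lowest of the 41 tumors, Brca1-/-p53+/- 2, was at 9.16. C3TAg tumors were highest and close together at 13.09, 12.97, 13.19, 13.57 and 12.72. In p53-/- tumors the lowest value was 10.59, the median 12.02 and the highest 13.19. The gap of 1.02 between these highest group means was wider than the larger SD, although their ranges overlapped. MMTV-Hras tumors read 11.39, 11.79, 12.72, 12.20 and 11.93, MMTV-C-Myc tumors 13.18, 10.89, 12.37 and 9.64, and MMTV-Wnt tumors 11.39, 10.92, 11.63 and 11.77. Brca1-/-p53+/- tumors read 12.33, 9.16, 11.83, 11.34 and 10.27. The MMTV-C-Myc and Brca1-/-p53+/- tumors had the widest spreads (SD 1.57 and 1.27), and those of both kinds that were lowest in Egr1 were also lowest in Junb. MMTV-PymT tumors had 10.15, 10.61 and 11.29 as lowest, median and highest value. MMTV-H2N tumors were the lowest tumor group at 10.49, 9.93, 9.59, 9.52 and 9.72, 0.82 below MMTV-PymT in the mean, and did not overlap the glands, whose mean was 2.01 lower still.

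**Figure D1:**
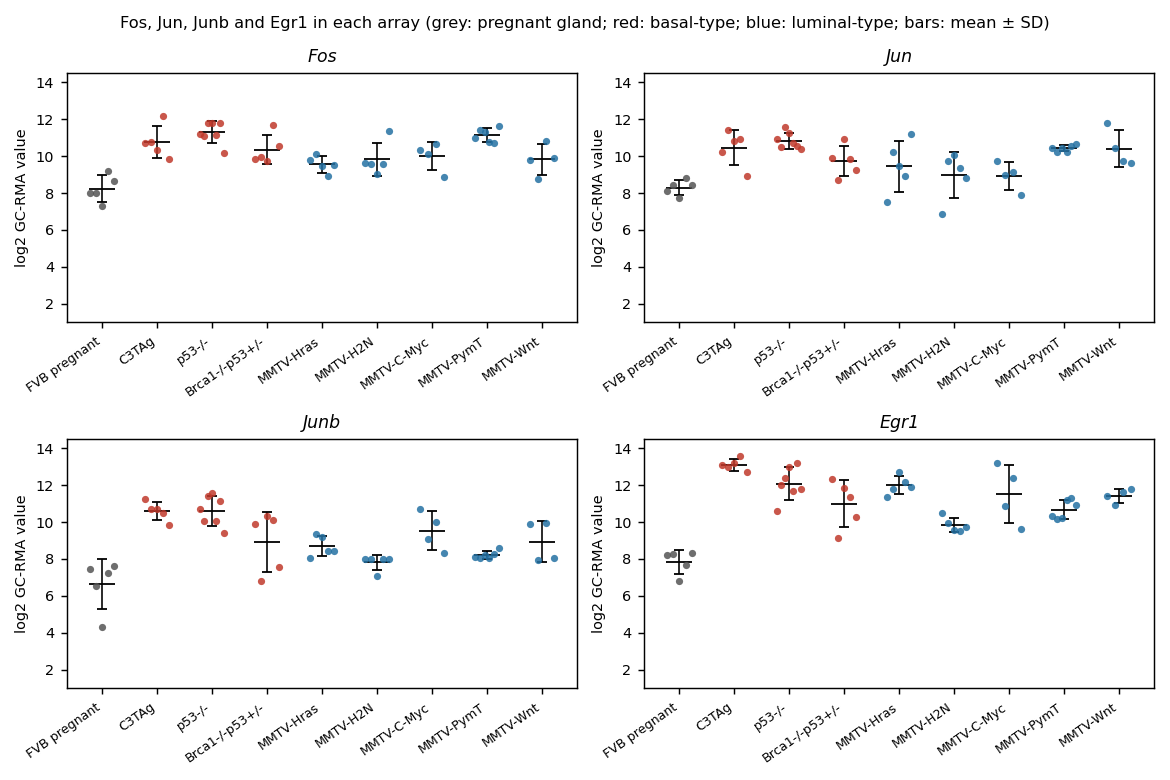
Log2 GC-RMA value (vertical axis) of Fos, Jun, Junb and Egr1 in each of the 46 arrays, by group (horizontal axis), where each point is an array and bars give the group mean and SD. Egr1 lay above the highest gland (8.30) in all 41 tumors, and in Junb gland 3 stood apart at 4.32.

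Arc, a gene best known for its role at synapses of neurons and a target of SRF and Egr factors, was expressed above the floor in 8 of the 46 arrays, and 5 of these were the 5 C3TAg tumors. They read 8.04, 8.67, 9.65, 9.22 and 5.00. The other arrays over 4 were p53-/- 7 (5.96), Brca1-/-p53+/- 1 (5.14) and MMTV-PymT 5 (5.41). All MMTV-Hras, MMTV-H2N, MMTV-C-Myc and MMTV-Wnt tumors and all glands read between 2.10 and 2.21. The gap between C3TAg and the next group mean, Brca1-/-p53+/- at 3.02 ± 1.34, was 5.10 and exceeded the larger SD (1.84). The tumor at 5.00, C3TAg 5, was also the lowest of its model for Fos, Jun, Junb, Jund and Egr1. Skeletal muscle genes were present in 4 of the 5 C3TAg arrays (mean level 7.28 to 10.35) and near the floor in C3TAg 1 (2.56), where Arc was at 8.04, and the glands had muscle levels of 6.06 to 13.43 with Arc at 2.13 to 2.19. The part of muscle in the Arc values was not tested.

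Fosl1, which encodes Fra-1, a Fos protein with no strong activation domain of its own that is known from invasive and mesenchymal cells, was a gene of single tumors. It was over 4 in 9 arrays, with 11.27 in Brca1-/-p53+/- 3, 10.89 in Brca1-/-p53+/- 4, 9.87 in MMTV-Wnt 3 and 8.85 in p53-/- 1. The next were p53-/- 6 (6.87), MMTV-C-Myc 1 (6.15), C3TAg 4 (6.14), C3TAg 3 (5.78) and MMTV-C-Myc 3 (4.79). All glands, MMTV-Hras, MMTV-H2N and MMTV-PymT arrays stayed below 4, with a highest value of 3.35 in MMTV-PymT 5. The first 3 of these tumors are those with the lowest mean level of mammary epithelial genes, and their mean levels of 10 fibroblast and matrix genes (13.17, 12.53 and 13.17) and of 8 macrophage genes (11.37, 11.74 and 12.06) were among the highest. Whether the cell makeup of these tumors had a part in Fosl1 was not tested. The other Fosl1 probe set exceeded 4 in 4 arrays and reached 9.63.

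Fosl2, which encodes Fra-2, stayed between 2.15 and 4.97 in all arrays and exceeded 4 in 6 of them. The highest were Brca1-/-p53+/- 1 (4.97), p53-/- 3 (4.68), Brca1-/-p53+/- 3 (4.59) and p53-/- 1 (4.58), followed by MMTV-C-Myc 2 (4.41) and MMTV-PymT 5 (4.15). Its group means ran from 2.77 in MMTV-Wnt to 3.81 in Brca1-/-p53+/- tumors, and no gap between neighbours exceeded the larger SD. Jund, the Jun gene that is expressed without stimulation in most cells, varied least among the members that were well above the floor. It ranged from 11.72 in an MMTV-PymT tumor to 13.45 in an MMTV-C-Myc tumor, with group means from 12.07 in MMTV-H2N to 12.75 in MMTV-Hras and 12.28 ± 0.44 in the glands. Here too none of the 8 gaps exceeded the larger SD.

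**Figure D2:**
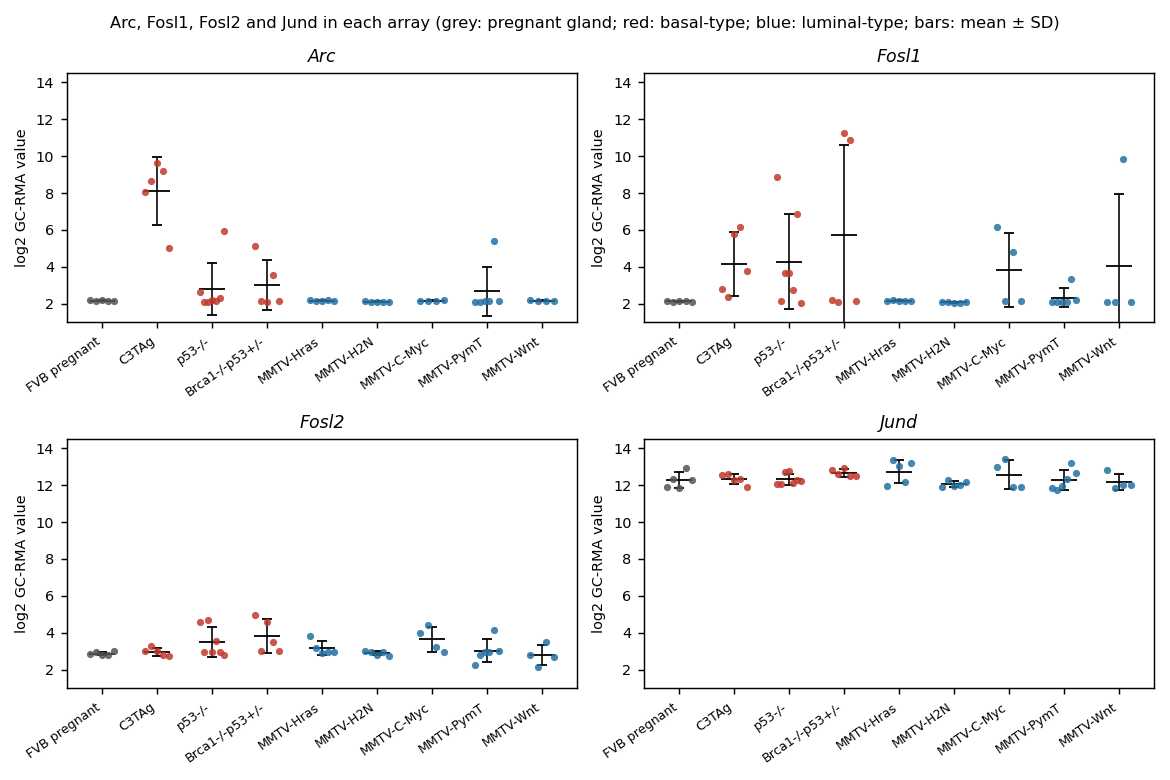
Log2 GC-RMA value (vertical axis) of Arc, Fosl1, Fosl2 and Jund in each array by group (horizontal axis), with 1 point per array and bars for mean and SD. Arc was over 4 in all 5 C3TAg tumors and in 3 other arrays, Fosl1 reached 11.27 in single tumors of several models, and Jund lay between 11.72 and 13.45 in every array.

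The promoters of Junb and of Fos and Jun, which were both correlated with it across arrays, are shown from RefSeq (build GRCm38.p6) with their response elements. RefSeq promoters from 250 bases before to 50 bases after the start were searched on both strands for 6 of the members. These were Fos, Fosb, Fosl2, Jun, Junb and Jund, and the promoters of Egr1, Fosl1 and Arc were not searched. The windows below run from -130 to -31 relative to the transcription start. Capitals mark TGACG, the core of the CRE that binds CREB and ATF proteins, or TGACATCA, the Jun-type site that binds Jun with ATF2. The Fos window is chr12:85473760-85473859 on the plus strand, with the core at -129 and again at -66, near the known CRE of Fos. That of Junb is chr8:84978779-84978878 on the minus strand, with the core at -106, and that of Jun is chr4:95052253-95052352 on the minus strand, with its site at -45.
Fos: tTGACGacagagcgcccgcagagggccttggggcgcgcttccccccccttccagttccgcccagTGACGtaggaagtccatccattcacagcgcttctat
Junb: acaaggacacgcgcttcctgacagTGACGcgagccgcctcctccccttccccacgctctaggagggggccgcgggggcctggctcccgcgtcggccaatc
Jun: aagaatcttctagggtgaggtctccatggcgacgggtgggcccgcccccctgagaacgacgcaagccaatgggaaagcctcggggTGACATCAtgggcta
The core was found in 3 of the 6 promoters (Fos, Junb and Fosb, there at -60) and in 20.8% of all 32851 promoters of the same length. The Jun-type site was found in Jun and in 3.62% of all promoters. The full CRE, TGACGTCA, which contains the core, and the AP-1 site TGAGTCA were in none of the 6 windows and in 1.79% and 5.2% of all promoters. A match is a match of letters, and binding was not measured.

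Compared with normal gland, Egr1, Junb, Fos and Jun were higher in tumors, and no member was lower. For this comparison the 8 models were weighted equally. The only glands were those of pregnant mice. Tumor and pregnancy therefore cannot be told apart here or in any other comparison with the glands. Egr1 was 3.62 higher on the log2 scale (SE 0.37, 12.3-fold, limma adjusted p = 6.08e-10), which ranked 77 among the differences of 9329 genes, and 41 of 41 tumors exceeded the highest gland. Junb was 2.54 higher (SE 0.43, adjusted p = 8.64e-06, 38 of 41 tumors above every gland), Fos 2.12 higher (SE 0.33, adjusted p = 2.42e-06, 37 of 41) and Jun 1.61 higher (SE 0.40, adjusted p = 0.00121, 37 of 41). Thus 4 of the 8 members tested were called higher, against 24.2% of all genes, and 0 lower, against 17.1%. The median difference was 1.52 over the 8 members and 0.20 over all genes. Not called were Fosl1 (1.43, 95% interval -0.75 to 3.62, adjusted p = 0.299), Arc (0.98, -0.01 to 1.98, 0.106), Fosl2 (0.35, -0.21 to 0.91, 0.321) and Jund (0.12, -0.33 to 0.57, 0.692). Arc was called (1.08, adjusted p = 0.0373) without C3TAg 5 and ranged from 0.0373 to 0.168 in adjusted p as each array was left out. Tumors and glands also differed in marker genes, with all 6 adipocyte, all 6 muscle and all 6 milk genes called lower in tumors. Of 8 macrophage genes 5 were called higher and 0 lower. Whether cell makeup had a part in the differences of the members was not tested.

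Single models, all compared with the same 5 glands, differed in which members were called. In C3TAg tumors Fos, Jun, Junb, Egr1 and Arc were called higher, 5 of 8 members, where 48% of all genes were called in either direction. In Brca1-/-p53+/- tumors Fos, Jun, Junb, Egr1 and Fosl2 were (32.1% of all genes), and in p53-/- (42.7%), MMTV-PymT (32.6%) and MMTV-Wnt tumors (27.8%) Fos, Jun, Junb and Egr1 were. In MMTV-Hras (28.1%) and MMTV-C-Myc tumors (31.7%) Fos, Junb and Egr1 were called, and in MMTV-H2N tumors (35.1%) Fos and Egr1. Over the 64 pairs of a model and a member, 30 were called higher and 0 lower. Of all genes, 14% (MMTV-Hras) to 29.4% (C3TAg) were called higher in a model. The share called lower ran from 12.3% (MMTV-PymT) to 18.5% (C3TAg). Egr1 and Fos were the members called in all 8 models.

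Egr1 differed from normal gland by 5.27 in C3TAg (SE 0.50, adjusted p = 6.6e-11), 4.25 in p53-/-, 4.16 in MMTV-Hras, 3.68 in MMTV-C-Myc, 3.59 in MMTV-Wnt, 3.15 in Brca1-/-p53+/-, 2.83 in MMTV-PymT and 2.01 in MMTV-H2N tumors (SE 0.50, adjusted p = 0.0017). The order of Fos was another one, with 3.07 in p53-/-, 2.92 in MMTV-PymT, 2.54 in C3TAg, 2.13 in Brca1-/-p53+/-, 1.78 in MMTV-C-Myc, 1.60 in MMTV-Wnt, 1.59 in MMTV-H2N and 1.33 in MMTV-Hras tumors (adjusted p = 0.0213). Junb differed by 3.99 in p53-/-, 3.97 in C3TAg, 2.90 in MMTV-C-Myc, 2.32 in MMTV-Wnt, 2.31 in Brca1-/-p53+/-, 2.07 in MMTV-Hras and 1.58 in MMTV-PymT tumors, and it was not called in MMTV-H2N tumors (1.20, adjusted p = 0.103). Jun ranged from 2.54 in p53-/- tumors to 1.43 in Brca1-/-p53+/- tumors where called, and stood at 1.16 in MMTV-Hras (adjusted p = 0.099), 0.68 in MMTV-H2N (0.349) and 0.64 in MMTV-C-Myc tumors (0.418). Arc was 5.95 higher in C3TAg tumors (SE 0.65, adjusted p = 1.73e-09) and was called in no other model (largest difference 0.86, in Brca1-/-p53+/-). Its size depends on the floor of the scale at which the glands lay.

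Some of these calls rested on single arrays. Fos in MMTV-Hras was lost without gland 3 (1.10, adjusted p = 0.0836) or MMTV-Hras 2 (1.19, 0.063), and Fos in MMTV-Wnt without MMTV-Wnt 3 (1.26, 0.058). Junb in MMTV-PymT was lost without gland 3 (1.01, adjusted p = 0.163), and also under quantile normalization (1.35, 0.0569) and array median centring (1.30, 0.0635). Jun in Brca1-/-p53+/- (1.43, adjusted p = 0.0357) was lost without any of 6 arrays (adjusted p up to 0.129). Fosl2 in Brca1-/-p53+/- (0.95, adjusted p = 0.045) was lost without any of 8 arrays, and its difference was 0.66 without Brca1-/-p53+/- 1. The remaining model calls against gland held as each of the 46 arrays was left out.

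**Figure D3:**
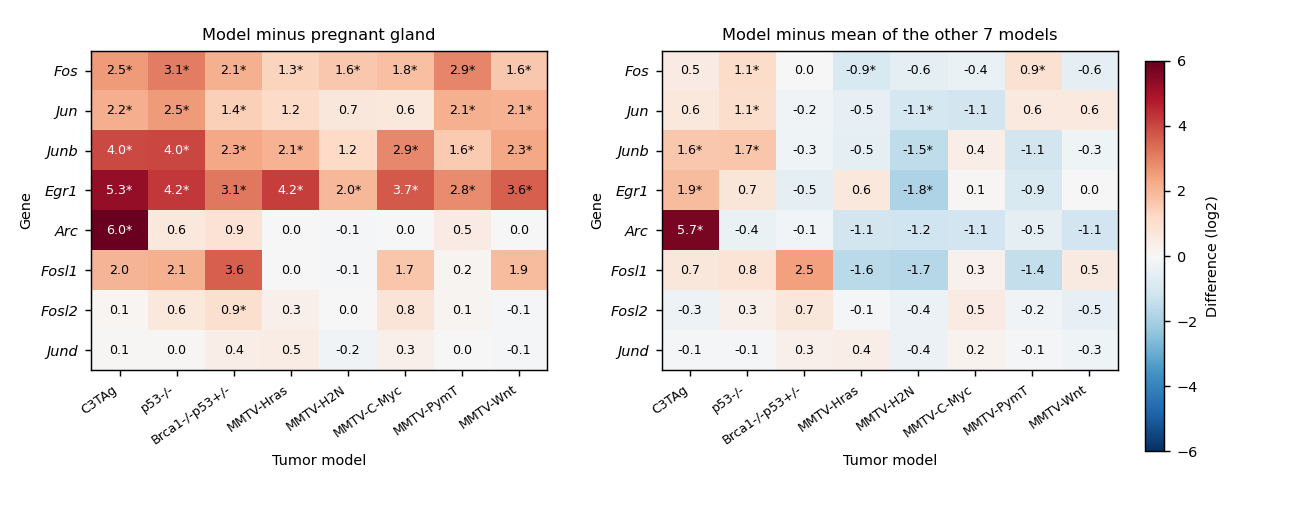
Difference in log2 value (color and number) of each member (rows) between each tumor model (columns) and the pregnant gland (left) or the mean of the other 7 models (right), with an asterisk where the limma adjusted p was under 0.05. Egr1 and Fos carry an asterisk in all 8 models on the left, and the largest value on the right is Arc in C3TAg (5.68).

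Setting each model against the mean of the other 7 asked where a member stood out among tumors without use of the glands. Of 64 pairs of a model and a member, 7 were called higher and 4 lower. Of all genes, 19.5% were called higher in C3TAg, 10.9% in MMTV-PymT and 10.6% in p53-/- tumors. The share called lower was 9.07% in MMTV-H2N and 14.8% in MMTV-Hras tumors. The shares of all genes given below count both directions. In C3TAg tumors 3 of 8 members were called (28.9% of all genes), and Arc was 5.68 higher (SE 0.49, adjusted p = 2.91e-11), which ranked 4 among the differences of 9329 genes. Its difference lay between 5.29 and 6.45 as each array was left out. Egr1 (1.89, adjusted p = 0.000207) and Junb (1.63, 0.00405) were also higher. In p53-/- tumors Junb (1.66, adjusted p = 0.00205), Fos (1.09, 0.00859) and Jun (1.07, 0.0311) were higher, 3 of 8 against 16.3% of all genes. In MMTV-PymT tumors Fos was the single member called (0.91, adjusted p = 0.0362, 17.8% of all genes). MMTV-H2N tumors stood at the other end, where Egr1 (-1.84, adjusted p = 0.000397), Junb (-1.53, 0.00861) and Jun (-1.06, 0.048) were lower, 3 of 8 against 25.2% of all genes. In MMTV-Hras tumors Fos was lower (-0.90, adjusted p = 0.045), 1 of 8 against 24.4%. By limma 0 members were called in Brca1-/-p53+/- (18.6% of all genes), MMTV-C-Myc (9.52%) or MMTV-Wnt tumors (6.32%). At an unadjusted limma p under 0.05 Fosl1 and Fosl2 were higher in Brca1-/-p53+/- tumors. At the same threshold Jun and Arc were lower in MMTV-C-Myc tumors and Arc was lower in MMTV-Wnt tumors. The share of all genes at that threshold was not computed, so no excess of members can be read from this. Arc was at the floor in MMTV-C-Myc (2.16) and MMTV-Wnt tumors (2.15), as in the glands (2.16), and the mean of the other models includes C3TAg (8.11).

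The weaker of these calls were not stable. With the probe set used, Jun in MMTV-H2N rested on MMTV-H2N 1, without which it was -0.54 (adjusted p = 0.369), and it was lost in 30 of 46 fits without an array (range of adjusted p 0.0227 to 0.369). Fos in MMTV-Hras was lost in 12 of 46 (0.0284 to 0.153), Fos in MMTV-PymT in 4 (0.02 to 0.0994) and Jun in p53-/- in 3 (0.0163 to 0.0818). The calls for Arc, Egr1 and Junb in C3TAg, for Egr1 and Junb in MMTV-H2N and for Fos and Junb in p53-/- tumors held in all 46. Heat shock genes, which respond to stress during handling as well as to other stress, had their highest mean levels over 12 genes in MMTV-PymT (11.59 ± 0.49) and C3TAg tumors (11.50 ± 0.09) and their lowest in MMTV-Hras tumors (10.27 ± 0.30) and glands (10.31 ± 0.17). MMTV-H2N tumors lay between at 10.79 ± 0.24. The part of handling in the group differences was not tested.

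Between the classes of the study, Junb, Egr1, Fos and Arc were higher in the 17 basal-type than in the 24 luminal-type tumors when tumors were treated as independent. The differences were 1.55 for Junb (SE 0.32, limma adjusted p = 0.00063), 2.14 for Arc (SE 0.58, 0.00578), 1.02 for Egr1 (SE 0.34, 0.0232) and 0.74 for Fos (SE 0.27, 0.0343). This made 4 of 8 members higher, against 15.9% of all genes, and 0 lower, against 12%, with a median of 0.88 over the members and 0.06 over all genes. Fosl1 (1.91, adjusted p = 0.0512) and Jun (0.73, 0.0789) were not called, and were called (2.25, 0.0216, and 0.92, 0.0223) when Brca1-/-p53+/- 2 and 5 were left out. With the model as a random block no member was called (Arc, adjusted p = 0.119, Junb, 0.135, Egr1, 0.312, Fos, 0.363), and of all genes 19 were higher and 30 lower. Fos was also lost without any of 6 single arrays (adjusted p up to 0.0629). The class differences did not hold model by model. In Junb the Brca1-/-p53+/- mean (8.94) lay below that of MMTV-C-Myc (9.53). In Egr1 it (10.99) lay below MMTV-Hras (12.01), MMTV-C-Myc (11.52) and MMTV-Wnt (11.43). In Fos the MMTV-PymT mean (11.15) exceeded those of C3TAg (10.77) and Brca1-/-p53+/- tumors (10.36). In Arc the p53-/- (2.78 ± 1.41) and Brca1-/-p53+/- means (3.02 ± 1.34) were within 1 SD of that of MMTV-PymT (2.68 ± 1.34).

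To ask which members moved together from array to array, each value was taken as its deviation from its group mean, and deviations were correlated over the 46 arrays. Of the 28 pairs of the 8 members, 5 were correlated after Benjamini-Hochberg adjustment over the pairs, all positively. Junb was in 4 of them. Junb and Egr1 had the highest value (r = 0.70, rho = 0.68, permutation adjusted p = 0.00098), followed by Jun and Jund (r = 0.59, rho = 0.63, 0.00028, whose unadjusted p of 1e-05 is the smallest that the permutations can give), Fos and Junb (r = 0.50, rho = 0.48, 0.0124), Jun and Junb (r = 0.45, rho = 0.50, 0.0104) and Junb and Jund (r = 0.42, rho = 0.47, 0.0228). All 5 passed by rank correlation too. Without the 2 arrays farthest from the median of the first gene the values were 0.67, 0.58, 0.44, 0.53 and 0.36 in that order, and the pairs Fos with Junb and Junb with Jund no longer passed (adjusted p = 0.0606 and 0.0746). Junb ranked 4 among 9328 genes for likeness to Egr1 and 7 for likeness to Fos, but 254 for Jun and 278 for Jund. For likeness to Junb, Egr1 ranked 5, Fos 268, Jun 433 and Jund 606. Jund ranked 25 for likeness to Jun, and Jun 17 for likeness to Jund.

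Fos and Egr1 themselves had r = 0.30 (permutation adjusted p = 0.168) and Fos and Jun r = 0.17 (0.396) within groups. With group means kept these values were 0.58 and 0.59, while Jun with Jund fell to 0.32 (adjusted p = 0.0504) and Junb with Jund to 0.28 (0.0937) and were no longer called. No pair with Arc passed (r from -0.06 with Fos to 0.22 with Fosl2 and Jund). Arc was over 4 in 8 of the 46 arrays, so its deviations held little signal in the others. An absence of correlation cannot be read from them. Fosl1 and Junb reached r = 0.50, which passed by rank (rho = 0.50, permutation adjusted p = 0.0247) but not by Pearson correlation (0.076), and r was 0.34 without Brca1-/-p53+/- 3 and 4. Within the larger groups r of Fos and Junb was 0.94 in the 7 p53-/- and 0.57 in the 6 MMTV-PymT tumors, and r of Junb and Egr1 was 0.51 and 0.27. Without the Brca1-/-p53+/- arrays 3 pairs were called, and Jun with Junb (0.37, adjusted p = 0.0581) and Junb with Jund (0.46, 0.0547) were not.

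**Figure D4:**
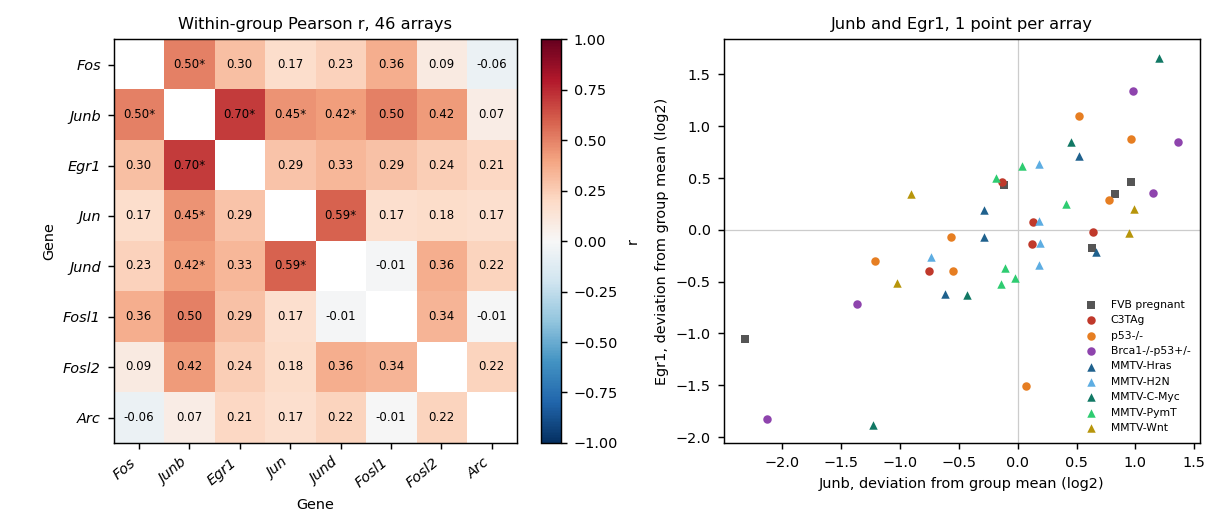
Left, Pearson r of deviations from group means over 46 arrays for each pair of the 8 members, with an asterisk where the permutation adjusted p was under 0.05. Right, Egr1 against Junb deviations (log2) with 1 point per array, in which gland 3, Brca1-/-p53+/- 2 and MMTV-C-Myc 4 lie at the lower left (r = 0.70).

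Among all genes tested, those nearest to each member by within-group r were listed as a description. Nearest to Fos was Errfi1 (r = 0.63), a feedback inhibitor of the EGF receptor, before Olfm1 (0.55) and Lsm12 (0.53). Nearest to Junb were Leprotl1 (0.76), Tnc (0.72), which encodes tenascin C, and Pias4 (0.72), and to Egr1 Rpl38 (0.74), Tpbg (0.73) and Dnajb1 (0.71), which encodes a heat shock cochaperone. Jun was nearest to Ptbp3 (0.74), Luzp1 (0.71) and Map3k7 (0.69), the kinase TAK1 upstream of JNK, and Jund to Akap9 (0.75), Sbno1 (0.69) and Scaf4 (0.67). Fosl1 was nearest to Upp1 (0.87), a uridine phosphorylase, Itgam (0.84) and Abhd8 (0.83), Fosl2 to Masp1 (0.66), Sdad1 (0.62) and Slc16a3 (0.61), and Arc to Trim29 (0.65), Phxr4 (0.63) and Bcl11b (0.62).

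Mean levels of gene lists were then set beside the members in the same way, over 128 relations of 8 members with 15 lists and the array median. AP-1 target genes (20 genes) followed Fosl1 (r = 0.85, rho = 0.74, permutation adjusted p = 0.00128, and 0.81 without the 2 farthest arrays) and Junb (r = 0.67, rho = 0.68, 0.00128, and 0.67). The arrays left out were those farthest from the median of the list level, here p53-/- 1 and Brca1-/-p53+/- 4. Brca1-/-p53+/- 3 (Fosl1 11.27) and MMTV-Wnt 3 (9.87) stayed in, and Fosl1 was over 4 in 9 of the 46 arrays. Fosl1 also followed the bZIP partners (r = 0.65, rho = 0.57, permutation adjusted p = 0.00128, and 0.56) and the upstream factors (0.50, rho = 0.44, 0.0443, and 0.073 by rank), and Jun the upstream factors (0.54, rho = 0.57, 0.00384, and 0.51). Of the cell type lists, Fosl1 had r = -0.49 with lymphocyte genes (permutation adjusted p = 0.0391, and 0.051 by rank), -0.75 with mammary epithelial genes (0.0842) and 0.55 with macrophage genes (0.0842), and their part in its other relations was not tested. The lymphocyte level rests on 3 of 8 listed genes, Jchain (tumor mean 4.49) and, near the floor, Cd3g (2.52) and Ms4a1 (3.28). Other immediate early genes (23 genes) followed Junb (r = 0.65, rho = 0.64, permutation adjusted p = 0.00192) as well as Jun (0.50, rho = 0.50, 0.0316) and Fos (0.47, rho = 0.43, 0.0443, and 0.073 by rank), and Egr1 did not pass (0.50, 0.0842). Heat shock genes were correlated with Fosl2 (r = 0.60, rho = 0.57, permutation adjusted p = 0.0155), Junb (0.52, rho = 0.45, 0.0283, and 0.0703 by rank), Jund (0.47, rho = 0.51, 0.0391) and Jun (0.47, rho = 0.51, 0.00789), and stood at 0.37 with Egr1 (0.268) and 0.12 with Fos (0.671). Fosl2 was over 4 in 6 of the 46 arrays, so most of the values behind its r were under 4, low on this scale. None of the members was correlated with the array median after adjustment.

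The other genes of the pathway were read from lists in the tumors against normal gland. Of 23 other immediate early genes, 8 were called higher (24.2% of all genes) and 0 lower (17.1%), with a median difference of 0.63. The largest were Nr4a1 (3.49, SE 0.66, limma adjusted p = 4.13e-05), an orphan nuclear receptor, Ier3 (3.36, SE 0.48, 5.16e-07), Ccn1 (3.30, SE 0.45, 1.58e-07) and Ccn2 (2.24, SE 0.61, 0.00312), both secreted matrix-associated proteins. Other genes of the same kind did not differ by the test, such as Dusp1 (-0.24, adjusted p = 0.763), the phosphatase that switches off MAPK, and Zfp36 (-0.02, 0.948), which encodes the mRNA decay factor tristetraprolin. Both were chosen as examples after their values were seen.

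Among 13 upstream kinases and SRF or CREB factors, 5 were higher (24.2% of all genes) and 1 lower (17.1%), with a median of 0.33. Elk3 (1.98, adjusted p = 0.000201) and Elk4 (0.84, 0.00319), ternary complex partners of SRF, Srf itself (1.16, 0.00181) and the kinase gene Rps6ka3 (0.95, 4.2e-05) were higher, and Map2k2, a kinase of the ERK cascade, was lower (-0.59, 0.0226). Of 10 bZIP partners of AP-1 (median 0.35), Batf3 alone was called (0.78, adjusted p = 0.00864), and not under array median centring. Batf3 was at the floor in the glands (mean 2.05), and its mean over the tumors was also near it (2.86, SD 1.74). Of 20 AP-1 target genes 6 were higher and 0 lower (median 1.17), a share of higher genes near that of all genes (24.2%), with Cd44 (4.86, adjusted p = 6.67e-14), a hyaluronan receptor, Cxcl1 (3.55, 1.91e-06), a neutrophil chemokine, Timp1 (3.32, 0.00242) and Ptgs2 (3.08, 0.00751) in front. In the basal-type against the luminal-type tumors 13 of these 20 were higher and 0 lower (15.9% and 12% of all genes), and 8 of the 23 other immediate early genes were higher and 1, Nr4a1, lower (-1.82, adjusted p = 0.00525), with tumors treated as independent. When the model was fitted as a random block, 0 genes of either list passed (lowest adjusted p = 0.101 and 0.0859). In the contrast of independent tumors 8 of 10 fibroblast and matrix genes were higher and 0 lower, and their part in these counts was not tested.

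Of 12 heat shock genes 4 were higher in tumors than in glands (24.2% of all genes) and 0 lower (17.1%), with a median of 0.40. They were Hspa1a (2.96, adjusted p = 0.000307), Hspa1b (2.38, 5.06e-07), Hsph1 (0.79, 0.0292) and Dnaja1 (0.47, 0.0408). The Hspa1a and Hspa1b genes are near-identical copies, so their signals may be shared. Under array median centring 2 were called. The other 8 were not called, among them Hspe1 (-0.13) and Hspa4l (-0.30), and the part of tissue handling in these values was not tested.

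**Figure D5:**
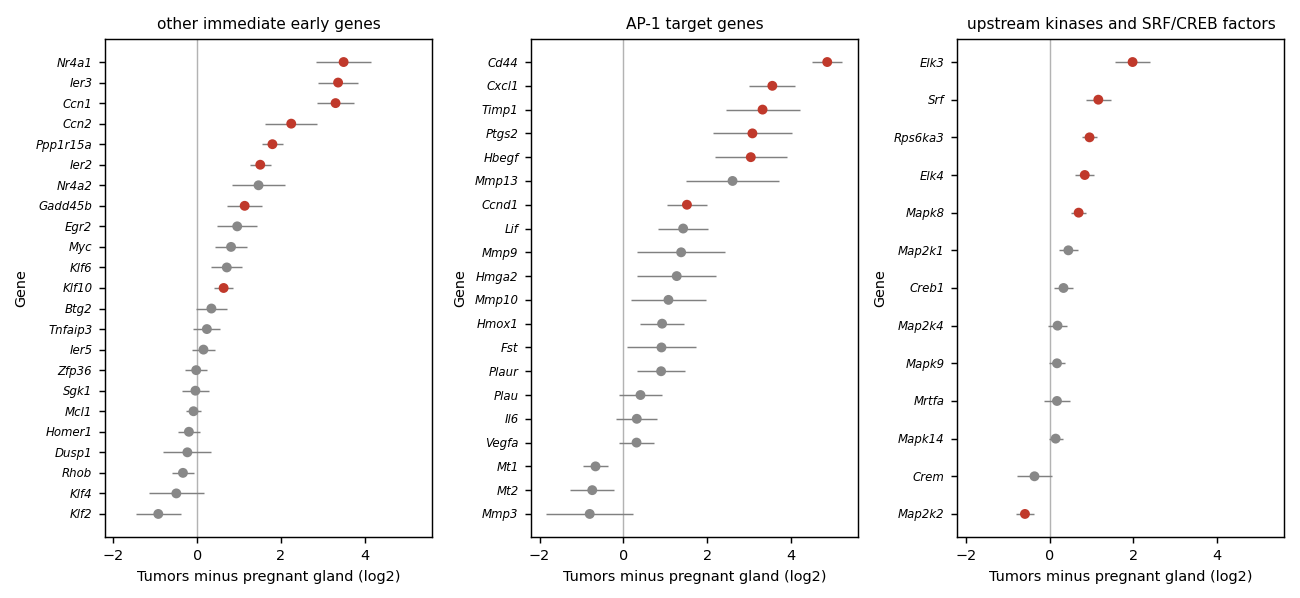
Difference in log2 value between tumors (equal-weighted mean of 8 models) and pregnant gland (horizontal axis) for the genes of 3 lists (vertical axis), with bars for the SE and red points for a limma adjusted p under 0.05. Of the other immediate early genes 8 of 23 are red, from Nr4a1 (3.49) to Klf10 (0.63), of the AP-1 target genes 6 of 20, and of the upstream factors 6 of 13.

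For Jun the result was checked with its other probe set, which was 0.98 higher in tumors than in glands (adjusted p = 0.00609), a smaller difference than the 1.61 of the one used, and 0.50 higher in basal-type tumors (0.0942). Against the other models it was lower in MMTV-H2N (-1.01, adjusted p = 0.0101) and not called in p53-/- tumors (0.69, 0.0571). The other Fosl1 probe set was not called in all tumors against gland or between classes (0.65, adjusted p = 0.535, and 0.99, 0.193). It was called in Brca1-/-p53+/- tumors against gland (2.86, adjusted p = 0.0342) and against the other models (2.52, 0.0237), where the one used was not.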

How the data were processed

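RNA from 46 tissues was hybridised to Affymetrix mouse arrays. Per the methods of the study, the authors scanned the arrays with GCOS, computed GC-RMA values in Partek and removed probe sets that MAS5 called present or marginal in fewer than 3 samples. The deposited values are on the log2 scale (18586 probe sets, 0 missing), and 0 columns of other samples were left unused. No scan date or other batch was given in the sources used here.

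Groups followed the sample titles. Probe sets with 1 gene symbol (16962) were kept, and each gene was represented by the probe set with the highest mean over all arrays. Genes over 4 in at least 3 arrays were tested with limma 3.58.1 (R 4.3.3, statmod 1.5.0) in 1 fit over the 9 groups, with a moderated F test. Its contrasts set a model against normal gland, a model against the mean of the other 7, and all tumors against normal gland. The classes were compared in a separate fit of the 41 tumors without the glands, with class as the single term. p-values were adjusted by the Benjamini-Hochberg method over 9329 genes within a contrast and called under 0.05. Within-group correlations used 100000 two-sided permutations of arrays within groups (Python 3.11.15, numpy 2.4.6) and were adjusted over 28 pairs or 128 relations. Figures were drawn with matplotlib 3.10.9. Scripts were tested on simulated data. Replicates are tumors of individual mice per the methods.

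Genes named in the text are the members, the 3 genes nearest to each member and those of the lists that passed the test, by size (at most 4 per direction), besides Dusp1, Zfp36, Hspe1 and Hspa4l, chosen after their values were seen. The members and lists were chosen with earlier results of these data known. Alternatives covered quantile normalization, array median centring, no filter, other probe sets, the eBayes options, FVB arrays alone, a replicate block, a random block for the model and leaving out each array. The number of arrays limits the precision.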

Additional observations from a re-analysis of the deposited data

Results flagged for a closer look

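Of 81 groups of arrays examined for the 9 genes, 13 held 1 array whose distance to its nearest neighbour was large against the range of the group, and chance flags about 1 in 20 groups. In 7 of them the value was over 4. Fos was 11.34 in MMTV-H2N 5 (nearest 9.61), Junb was 7.10 in MMTV-H2N 3 (8.01) and 8.62 in MMTV-PymT 6 (8.25), and Jund was 12.84 in MMTV-Wnt 1 (11.99). Fosl1 was 9.87 in MMTV-Wnt 3 (nearest 2.10), and Arc was 5.96 in p53-/- 7 (2.66) and 5.41 in MMTV-PymT 5 (2.16). The other values lay near the floor, with Fosb at 2.84 in MMTV-H2N 5, 2.24 in MMTV-Hras 1, 2.55 in MMTV-Wnt 3 and 3.11 in MMTV-PymT 6, Fosl1 at 3.35 in MMTV-PymT 5 and Arc at 2.21 in MMTV-C-Myc 4.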

How the results depend on the processing

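The calls of Egr1, Fos, Junb and Jun in all tumors against normal gland held under every alternative run. Array median centring moved the median difference of all genes from 0.20 to -0.005, turned Jund to -0.083 in all tumors and -0.018 between classes, and left 0 bZIP partners and 2 heat shock genes called higher and 1 AP-1 target gene lower. With FVB arrays alone, where C3TAg is the single basal-type model, the class difference was -0.012 for Jund and -0.12 for Fosl2, that of Egr1 was 2.06, that of Arc 5.84, Fos was not called (0.63, adjusted p = 0.277), and 4 pairs of a model and a member were called higher against the other models. Without Brca1-/-p53+/- 2 and 5, chosen after seeing the data, 7 pairs were lower against the other models. As each array was left out, that count ran from 2 to 7. With the model as a random block 0 members differed between classes. Correlated pairs numbered 3 without the Brca1-/-p53+/- arrays and 14 with group means kept, where 2 of the original 5 were lost. Against the other models, Fos in MMTV-Hras was lost under quantile normalization (-0.75, adjusted p = 0.103), centring (-0.70, 0.145) and with FVB arrays alone (-0.75, 0.1), and Fos in MMTV-PymT under the first 2 (0.0506 and 0.0716). Jun was lost in p53-/- under centring (0.0502), and in MMTV-H2N with no filter and with FVB arrays alone (0.108). Fosl2 in Brca1-/-p53+/- against gland was lost under centring (adjusted p = 0.0713) and with trend and robust eBayes.

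Same-numbered arrays of different groups did not deviate together (median r 0.0018 over 166 pairs), so the numbers pair no samples. With the replicate block, Fos in MMTV-PymT (0.81, adjusted p = 0.0798) and Jun in MMTV-H2N (-1.07, 0.0624) against the other models were no longer called, and Fosl1 was called between classes (2.14, 0.0265).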
